A study of Mus musculus with 10 samples.

Results

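Cd151, Sphk2, Cbfb, Snapin, Mms19, Maf, Cast, Nalf2 and Mid1ip1 are 9 mouse genes out of 78317 listed and 15680 tested in the medial prefrontal cortex (mPFC). They were chosen by 2 criteria, a full 8-base match to the seed of the microRNA miR-130a-3p in an annotated 3′ untranslated region (3′ UTR) and lower measured transcript levels in mPFC that had received a miR-130a virus. The measured difference in these same libraries was therefore part of the choice, and their levels are given below as a description with no test. All 9 genes passed the filter of a mean of at least 1 TPM over the 10 libraries (TPM is the share of transcripts per length, scaled to a fixed total in each library).

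Bulk RNA sequencing was done on 1-mm punches of mPFC, a mixture of cell types, from wild-type mice, and the authors deposited 1 TPM value per gene and library. Libraries 13, 14, 15, 17 and 18 came from mice given an adeno-associated virus (AAV) that overexpressed miR-130a-3p. Libraries 3, 4, 5, 7 and 9 came from mice given a control AAV. The groups share the wild-type genotype, the tissue and an AAV injection. The promoter of the AAV, the cell types that it reached, its dose, the age of the mice and the time until tissue was taken are not given in the sources used here. Nothing states that each library came from a separate mouse, so a p-value here refers to variation among libraries, which may be technical.

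MicroRNAs are short RNAs that guide Argonaute proteins to messenger RNAs, chiefly through pairing of the seed, the bases near the 5′ end of the microRNA, with a site in the 3′ UTR. Bound messengers are translated less and their poly(A) tails are shortened, which often lowers their level. A site that pairs with bases 2 to 8 and has an A opposite base 1 is the most effective of the common site types, and the 7-base types that lack either the A or the pairing at base 8 are weaker on average. The seed of miR-130a-3p is shared by a family of microRNAs, so a seed site alone does not tell which member would use it.

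In the RefSeq table (build GRCm38.p6), 7 mature mouse microRNAs carry the seed AGUGCAA at bases 2 to 8. The overexpressed microRNA is shown with 2 relatives because the 3 differ after the seed and would share the same sites; capitals mark the seed.
mmu-miR-130a-3p: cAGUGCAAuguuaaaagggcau
mmu-miR-130b-3p: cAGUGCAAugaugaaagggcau
mmu-miR-301a-3p: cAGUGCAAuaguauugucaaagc
The others are miR-130c, miR-6341, miR-6389 and miR-721. The Mir130a gene itself, at chr2:84741116-84741137 for the mature strand, was listed at 0 TPM in all 10 libraries. Poly(A)-selected libraries do not capture mature microRNAs, so the overexpression could not be checked in these data.

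The site searched was TTGCACTA on the transcript strand only, with TTGCACT and TGCACTA as the 7-base types (both lie within the 8-base site and were counted only outside it). Among 13307 tested genes with an annotated 3′ UTR, 332 (2.49%) held the 8-base site in the longest UTR and 1896 (14.2%) held only a 7-base site. The 10 sites of the 9 genes are printed with the 22 bases before them, because the results below turn on where each site lies and on which transcripts carry it; capitals mark the site.
Cd151 site 1: atgtcaggccgggcggccagccTTGCACTA
Cd151 site 2: atgccaggctgggcggccagccTTGCACTA
Sphk2: ttcccccaggtggtccccagatTTGCACTA
Cbfb: gacgtcacccactgccatggttTTGCACTA
Snapin: ctctgtagacctttgattttttTTGCACTA
Mms19: tcctctgggcagaggcggctggTTGCACTA
Maf: aattaaagtatttgggactgaaTTGCACTA
Cast: aaatctcattagtatttttggtTTGCACTA
Nalf2: gtgcttcatgagtaggcctttcTTGCACTA
Mid1ip1: aggattgcgtcagttttcctgtTTGCACTA

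Cd151 was the only one of the 9 genes with more than 1 full site, and 8 of the 332 genes had 2 or more. Its sites begin at bases 31 and 73 of a 776-base UTR (GRCm38 chr7:141470728-141470735 and chr7:141470770-141470777, plus strand). They lie 42 bases apart in a short repeat, whose printed 30-base windows match at 28 of 30 positions. All 3 annotated Cd151 UTRs hold both sites.

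The sites of Snapin, Cbfb, Sphk2, Cast and Mid1ip1 also begin within 600 bases of the stop codon. They begin at base 103 of 1458 in Snapin (chr3:90489382-90489389, minus strand), at base 197 of 2055 in Cbfb (chr8:105216123-105216130, plus strand) and at base 321 of 1258 in Sphk2 (chr7:45710397-45710404, minus strand). In Cast the site begins at base 369 of 2474 (chr13:74694466-74694473, minus strand), with a 7-base site before it at base 321. In Mid1ip1 it begins at base 481 of 912 (chrX:10719259-10719266, plus strand), with 424 bases after it, and is thus nearer the end of that short UTR. The principal Cast transcript, with a 554-base UTR, holds the site, while 2 annotated Cast transcripts with UTRs of 231 and 179 bases end before it.

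Nalf2, Maf and Mms19 differ from these. The Nalf2 site begins at base 2219 of 2445, near the end of the UTR (chrX:99848564-99848571, plus strand), and the same UTR holds 7-base sites at bases 1370 and 2377. The Maf site begins at base 1999 of the 4316-base UTR of Maf-202 (chr8:115703745-115703752, minus strand), with a 7-base site at base 1751. The shorter Maf transcript, Maf-201, has a UTR of 1847 bases that holds neither.

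In Mms19 the full site is in a 3′ UTR only in transcripts annotated as targets of nonsense-mediated decay. In Mms19-209, the transcript with the longest UTR, it begins at base 1096 of 6800 (chr19:41949802-41949809, minus strand). The same bases lie inside the coding sequence of the principal coding transcript, Mms19-217, from base 2147 of 3096. The 3467-base UTR of that coding transcript holds a single 7-base site, at base 3366. Mms19 therefore meets the site criterion by gene, and not by its protein-coding transcripts.

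**Figure D1:**
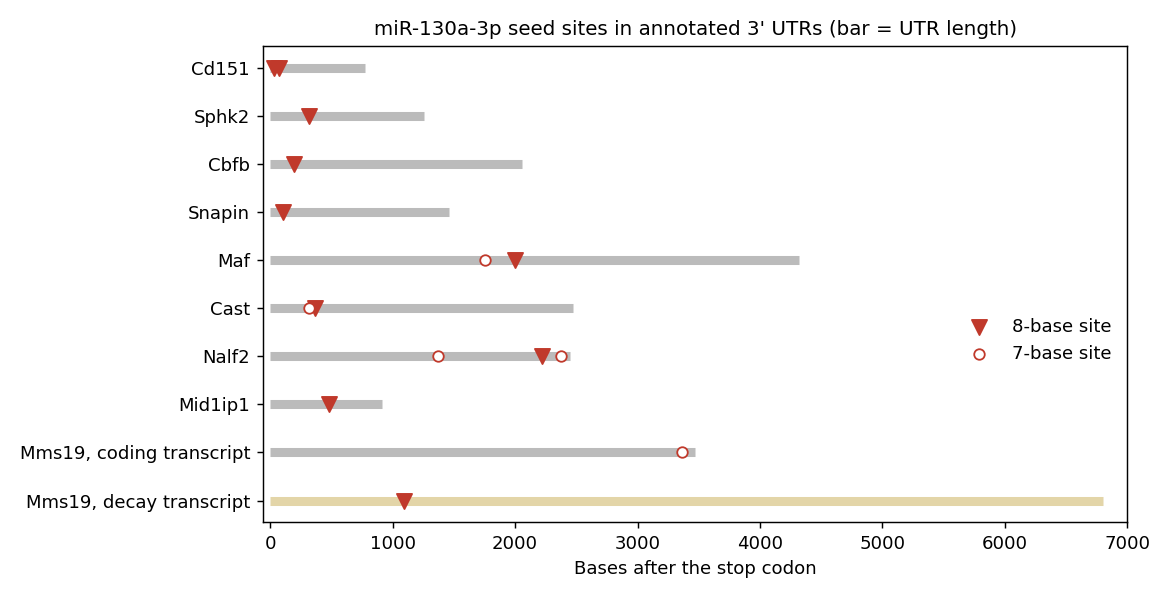
Seed sites along the 3′ UTRs of the 9 genes. Grey bars give the UTR length in bases after the stop codon (x axis) of the longest 3′ UTR, with Mms19 drawn for its coding transcript (grey) and for a transcript annotated for decay (yellow); triangles are 8-base sites and circles 7-base sites. The 8-base sites of Cd151, Snapin, Cbfb, Sphk2, Cast and Mid1ip1 begin within 600 bases of the stop codon, and the coding transcript of Mms19 has no 8-base site in its UTR. The Mms19 transcript annotated for decay also holds a 7-base site, which is not drawn.

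Of the 10 sites, 7 began within 600 bases of the stop codon, against 93 of 342 sites (27.2%) over all 332 genes, which include these 10. The median start was base 345 for the 10 sites and base 1209 for the 342. The share of A and U in the 30 bases on each side ran from 28.3% at the first Cd151 site to 73.3% at the Maf and Cast sites, with a median of 54.1%, against 58.3% over the 342 sites. These are descriptions of a chosen set, and no difference was tested.

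All 9 genes had every miR-130a AAV library below every control AAV library and were called lower in the fit over all genes by limma. Over all 15680 tested genes 11.3% were called lower (1767 genes) and 2.19% higher (343 genes), 9.46% had all miR-130a libraries below all controls and 1.85% had them all above. Since the same contrast chose the 9 genes, nothing is read from their count. The means with the miR-130a AAV were 47.7% to 64.2% of the control means, lowest for Cast and highest for Mms19. In bulk tissue, fewer cells of a type and less RNA per cell cannot be told apart. This bears on these genes because microglial markers moved with the groups too, with 9 of 10 called lower and a summed level of 589 to 844 TPM in the miR-130a libraries, against 1391 to 3186 TPM in the control libraries. Their part in the levels of the 9 genes was not tested.

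At the cell surface, Cd151 is a tetraspanin, a membrane protein that binds laminin-binding integrins, and Nalf2 encodes an auxiliary protein of the sodium leak channel NALCN. Cd151 had 23.0, 22.4, 20.1, 22.9 and 25.8 TPM in the miR-130a libraries 13, 14, 15, 17 and 18, against 38.1, 40.3, 37.7, 41.6 and 48.9 TPM in the control libraries 3, 4, 5, 7 and 9. The groups were separated by 11.9 TPM, and library 9 was the highest control. Cd151 averaged 22.9 ± 2.01 TPM with the miR-130a AAV and 41.3 ± 4.51 TPM with the control AAV (SD, n = 5 each), a log2 fold change of -0.82 (SE 0.10) on the scale of log2(TPM + 1) that is used throughout.

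Nalf2 had 4.54, 5.38, 5.15, 3.75 and 5.73 TPM in the miR-130a libraries, against 12.3, 10.1, 12.5, 9.57 and 6.59 TPM in the control libraries. Here library 9 was the lowest control, only 0.86 TPM above the highest miR-130a library. Nalf2 averaged 4.91 ± 0.78 TPM with the miR-130a AAV and 10.2 ± 2.41 TPM with the control AAV (SD, n = 5 each), and its log2 fold change of -0.91 (SE 0.17) moved to -1.04 without library 9. The control coefficient of variation of 23.6% was the largest among the 9 genes.

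Sphk2 and Mid1ip1 act in lipid metabolism. Sphk2 is a sphingosine kinase that makes the lipid messenger sphingosine-1-phosphate, also in the nucleus and mitochondria, and Mid1ip1 is a relative of Thrsp (Spot 14) that promotes polymerisation of acetyl-CoA carboxylase, the first committed enzyme of fatty acid synthesis. Sphk2 had 9.33, 10.2, 8.72, 9.37 and 10.6 TPM in the miR-130a libraries, against 19.9, 18.6, 19.1, 18.7 and 12.5 TPM in the control libraries. The other 4 controls lay within 18.6 to 19.9 TPM, and library 9 stood below them while still above all miR-130a libraries. Sphk2 averaged 9.65 ± 0.755 TPM with the miR-130a AAV and 17.8 ± 3.0 TPM with the control AAV (SD, n = 5 each), with a log2 fold change of -0.80 (SE 0.13).

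Mid1ip1, the most abundant of the 9 genes, had 72.5, 76.9, 65.8, 65.9 and 93.8 TPM in the miR-130a libraries, against 105, 152, 134, 131 and 103 TPM in the control libraries. Controls 3 and 9 were close to library 18, the highest of the miR-130a group, and the other 3 controls were well above it. The means were 75.0 ± 11.5 TPM with the miR-130a AAV and 125 ± 20.8 TPM with the control AAV (SD, n = 5 each), with a log2 fold change of -0.73 (SE 0.13).

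Snapin and Cast encode proteins that bind machinery of membranes and proteolysis. Snapin is a subunit of the lysosome-related complexes BLOC-1 and BORC that also binds SNAP25, a SNARE protein of vesicle fusion, and Cast encodes calpastatin, the inhibitor of the calcium-dependent proteases calpain 1 and 2. Snapin had 28.4, 29.5, 23.2, 21.2 and 31.9 TPM in the miR-130a libraries, against 41.1, 43.3, 58.4, 42.9 and 44.1 TPM in the control libraries. Library 5 stood above the other 4 controls, which lay within 41.1 to 44.1 TPM. Snapin averaged 26.8 ± 4.47 TPM with the miR-130a AAV and 46.0 ± 7.02 TPM with the control AAV (SD, n = 5 each), with a log2 fold change of -0.76 (SE 0.13).

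Cast, the least abundant of the 9 genes, had 2.78, 3.28, 4.10, 2.09 and 4.65 TPM in the miR-130a libraries, against 8.34, 6.66, 6.31, 7.49 and 6.6 TPM in the control libraries. Its miR-130a libraries varied most of the 9 genes, with a coefficient of variation of 30.2%, with library 17 the lowest and library 18 the highest. Cast averaged 3.38 ± 1.02 TPM with the miR-130a AAV and 7.08 ± 0.83 TPM with the control AAV (SD, n = 5 each). Its log2 fold change of -0.91 (SE 0.16) is understated by the added 1 TPM at this low level and was -1.09 with 0.1 TPM added.

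The other 3 genes act in transcription and genome maintenance. Cbfb encodes the non-DNA-binding subunit of core-binding factor, the partner of the RUNX transcription factors. Maf encodes a large Maf transcription factor of the basic leucine zipper class, which is used in macrophages and in somatostatin and parvalbumin interneuron development among other cells. Mms19 is part of the complex that delivers iron-sulfur clusters to enzymes of DNA replication and repair.

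Cbfb had 12.6, 14.6, 15.7, 11.2 and 13.8 TPM in the miR-130a libraries, against 23.7, 19.3, 19.96, 21.1 and 23.7 TPM in the control libraries. The groups were separated with no library standing apart. Cbfb averaged 13.6 ± 1.74 TPM with the miR-130a AAV and 21.6 ± 2.06 TPM with the control AAV (SD, n = 5 each), with a log2 fold change of -0.63 (SE 0.11).

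Maf had 7.54, 7.69, 7.12, 6.26 and 8.84 TPM in the miR-130a libraries, against 13.3, 10.7, 10.9, 13.8 and 12.2 TPM in the control libraries. Control libraries 4 and 5 were the lowest of their group, and all controls were above library 18. Maf averaged 7.49 ± 0.937 TPM with the miR-130a AAV and 12.2 ± 1.38 TPM with the control AAV (SD, n = 5 each), with a log2 fold change of -0.63 (SE 0.11).

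Mms19 had 12.2, 11.7, 11.7, 9.70 and 12.4 TPM in the miR-130a libraries, against 18.5, 19.5, 19.6, 17.1 and 14.9 TPM in the control libraries. Library 17 was the lowest of its group and library 9 the lowest control. Mms19 averaged 11.5 ± 1.07 TPM with the miR-130a AAV and 17.9 ± 1.96 TPM with the control AAV (SD, n = 5 each), and its log2 fold change of -0.59 (SE 0.10) was the smallest of the 9.

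**Figure D2:**
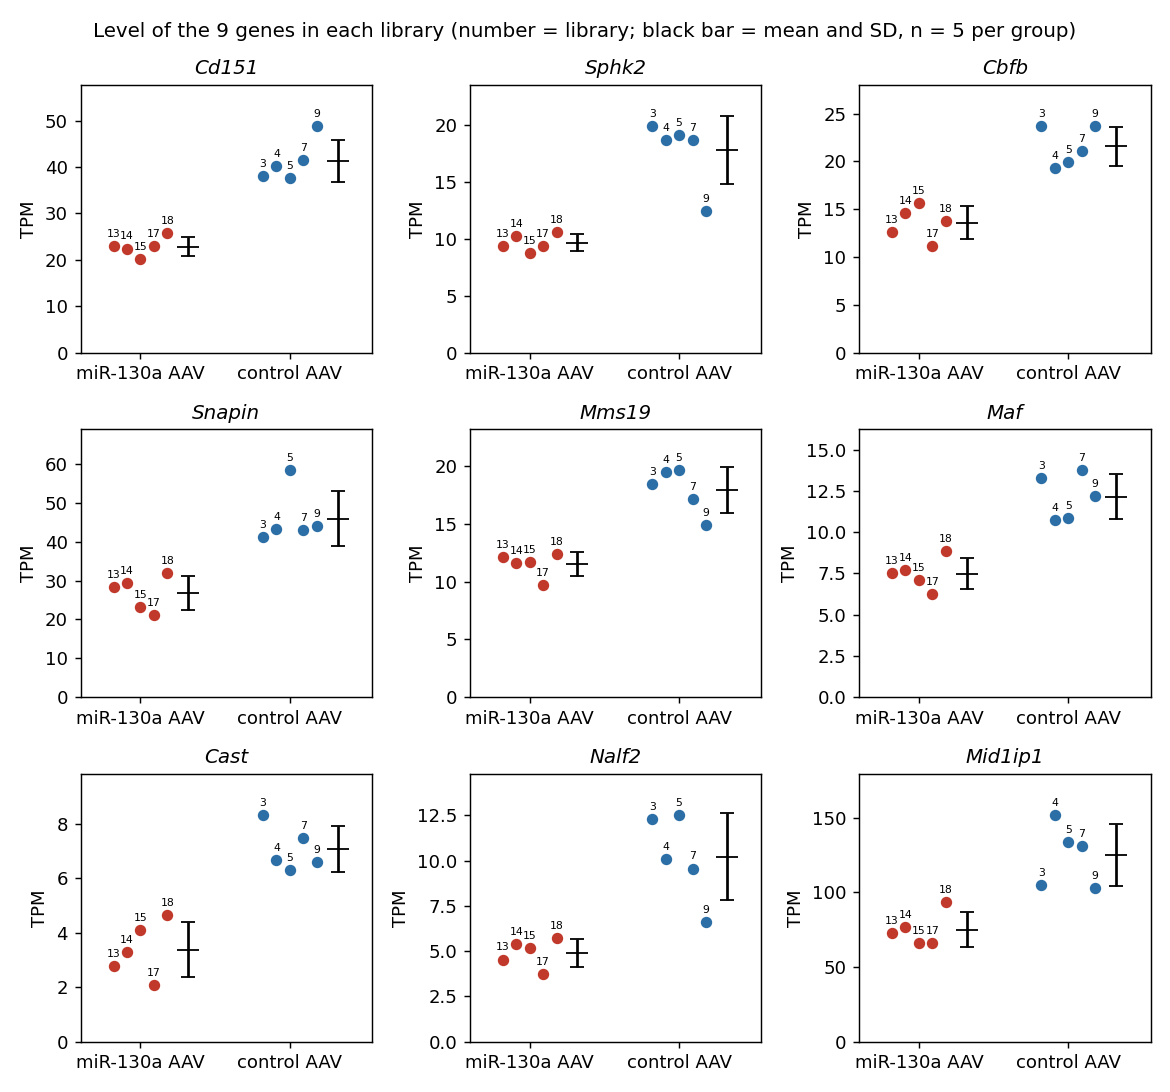
TPM of each of the 9 genes (y axis, linear from 0, a separate scale per gene) in the 5 miR-130a AAV libraries (red, left) and the 5 control AAV libraries (blue, right). Points are libraries with their numbers, and black bars give the mean and SD of 5 libraries; no gene has overlapping groups, and the gap is narrowest for Nalf2, at 0.86 TPM.

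By their place among the 15680 tested genes in mean TPM, the 9 genes ranged from the 30th percentile (Cast) to the 90.5th (Mid1ip1). On the opposite strand, 7 of the 9 overlap another annotated gene in GENCODE M21. Snapin overlaps Ilf2, Cast overlaps Erap1, Mms19 overlaps Zdhhc16, and Sphk2 overlaps both Rpl18 and Dbp. Cd151 overlaps the non-coding gene Gm10575, Maf overlaps Gm15655 and Mid1ip1 overlaps Gm14493. The libraries were stranded, but the strand setting used for counting is not given in the sources used here, so reads of these pairs may not have been kept apart. Cbfb and Nalf2 overlap none.

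Within the groups, the same libraries tended to be at the ends. Library 18 was the highest miR-130a library for 8 of the 9 genes, and library 17 the lowest for 6 and library 15 for 3. Among the controls, library 9 was the lowest for Sphk2, Mms19, Nalf2 and Mid1ip1 and the highest for Cd151 and Cbfb. Pearson correlations of the genes' deviations from their group means had a median of 0.24 over the 36 pairs, and 29 were positive. They ran from -0.61 between Cd151 and Nalf2 to 0.86 between Mms19 and Nalf2. These 10 libraries share their scaling, and the values are a description.

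For each of the 9 genes the tested protein-coding gene with the most similar deviations was found. The correlation over 10 libraries was 0.99 for Cbfb with Gm14305, Cast with Pkd2 and Nalf2 with Dyrk1a. It was 0.98 for Sphk2 with Gpr153 and Mms19 with Gga3, 0.96 for Snapin with Bace2, 0.95 for Maf with Rhebl1, 0.94 for Mid1ip1 with Igfn1 and 0.92 for Cd151 with Kctd11. Each is the highest over all tested protein-coding genes, from few libraries. Without library 9 the value for Sphk2 and Gpr153 was 0.87. With 1 library left out in turn, that for Cd151 and Kctd11 fell to 0.83 at the lowest. The other pairs stayed at 0.92 (Mid1ip1 with Igfn1) or above.

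TPM values add to a fixed total, so a change in other genes shifts all of them, and the median log2 fold change over all tested genes was -0.09. Mitochondrially encoded genes took 16.0% to 19.9% of the TPM in the miR-130a libraries and 13% to 16.4% in the control libraries. With median-ratio scaling the median of all genes was 0.01 and the 9 genes' log2 fold changes ran from -0.82 (Cast) to -0.48 (Mms19). With quantile normalization, where the median of all genes was 0.05, they ran from -0.71 to -0.43. The sign of these values was largely fixed by the choice of the genes on the same libraries, and they are given for their size only. Leaving out the control libraries 7 and 9 moved Nalf2 to -1.10, Sphk2 to -0.93 and Mms19 to -0.69, and Cd151 to -0.74.

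**Figure D3:**
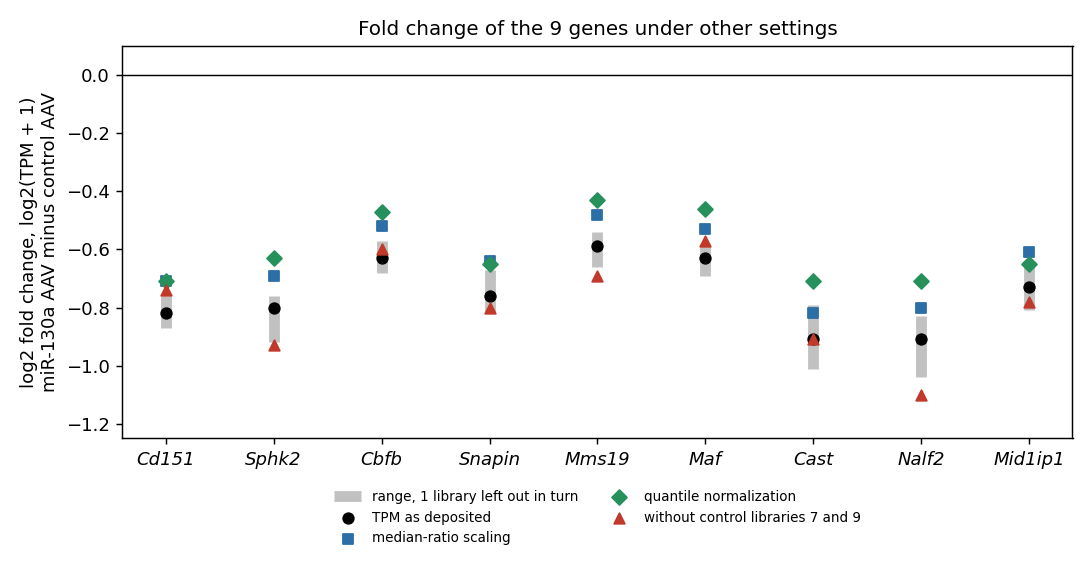
Log2 fold change of the 9 genes, miR-130a AAV minus control AAV on the log2(TPM + 1) scale (y axis), as deposited and under other settings. Black circles use the deposited TPM, grey bars span the fits with 1 library left out in turn, and the other symbols are other scalings or the fit without control libraries 7 and 9; every value lies below 0, from -1.10 (Nalf2) to -0.43 (Mms19).

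The 9 genes are not all of the lower genes with this site. Of the 332 tested genes with an 8-base site, 55 (16.6%) were called lower and 3 (0.904%) higher, against 11.3% and 2.19% of all tested genes. The 55 include the 9 chosen genes, which are among the first 13 of the 55 when ordered by p. That place was largely fixed by the choice of the 9 on the same contrast. Without control library 9, 88 of the 332 (26.5%) were called lower, as were 2922 of all tested genes and 20.9% of genes with no site. Psap, Abcg1 and Pmepa1 were also among those 13. Nalf2 and Mid1ip1 were the last of the 9 in that order, and Thop1 and Ankfy1 came next outside them. Thop1, an oligopeptidase, averaged 19.8 ± 4.23 TPM with the miR-130a AAV and 37.4 ± 6.84 TPM with the control AAV (SD, n = 5 each), with a log2 fold change of -0.89. Ankfy1 averaged 7.63 ± 1.69 TPM with the miR-130a AAV and 13.1 ± 1.31 TPM with the control AAV (SD, n = 5 each), with a log2 fold change of -0.72. Besides Mms19, the called genes Vwf and Qars1 lack the site in the longest UTR among their protein-coding transcripts.

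Low log2 fold changes among the other genes with a site included those of a leukocyte receptor and a lysosomal protease. Slamf7, a receptor of leukocytes, averaged 0.486 ± 0.329 TPM with the miR-130a AAV and 5.96 ± 5.32 TPM with the control AAV (SD, n = 5 each), a log2 fold change of -1.92, or -3.07 with 0.1 TPM added. Its control values ran from 1.94 to 13.9 TPM, and it passed the filter only through them, so no p is given for it, though it is counted among the 55. Ctsc, the lysosomal protease cathepsin C, had a log2 fold change of -1.47 (adjusted p = 0.00878 by limma). Pmepa1, an inhibitor of TGF-beta signalling, was at -1.04 and Letmd1 at -0.96 (limma adjusted p = 0.00365 and 0.00674).

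There were 3 genes with an 8-base site that were called higher. Prrg3 averaged 12.9 ± 1.49 TPM with the miR-130a AAV and 8.81 ± 1.37 TPM with the control AAV (SD, n = 5 each), a log2 fold change of 0.50 (limma adjusted p = 0.0201). Rgs2, a regulator of G protein signalling, was at 0.49 (limma adjusted p = 0.0236). Fuom was at 0.48 (limma adjusted p = 0.0353), and its groups overlapped. The call of Prrg3 was lost without miR-130a library 13, and those of Rgs2 and Fuom in 5 and 9 of 17 other settings. At the threshold, Pex5l was the called lower gene with the highest adjusted p (0.049 by limma), and Adcy1, with 66.7 ± 21.8 TPM with the miR-130a AAV and 109 ± 22.3 TPM with the control AAV (SD, n = 5 each), was the nearest that missed it (limma adjusted p = 0.051).

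With the 9 genes left out, 46 of 323 genes with an 8-base site (14.2%) were called lower and 3 (0.929%) higher, with a median log2 fold change of -0.18. Of the 1896 genes with only a 7-base site, 253 (13.3%) were called lower and 19 (1.00%) higher, with a median of -0.14. Of the 11079 genes with no site, 1411 (12.7%) were called lower and 266 (2.40%) higher, with a median of -0.11. The log2 fold change was below 0 for 80.8% of the genes with an 8-base site, 72.3% of those with a 7-base site and 65.4% of those with none. Genes with an 8-base site have longer UTRs, with a median of 2856 bases for the 332, against 1197 bases for genes with no site. The scaling moved the 14.2% too. It was 9.29% with protein-coding rescaling (9.22% of genes with no site) and 8.67% with quantile normalization (7.55%). With median-ratio scaling it was 10.2% (8.58% of genes with no site). Leaving out 1 library moved the 14.2% to between 8.98% (without control 3 or miR-130a 13) and 24.5% (without control 9). The share called lower was below that of genes with no site without control 3 (8.98% against 9.59%), control 4 (9.91% against 10.6%), control 5 (9.91% against 10.8%) or miR-130a library 17 (9.91% against 10.8%). Without miR-130a library 17 the medians were -0.10 with an 8-base site and -0.09 with no site. These values were not tested as sets, and nothing is called particular to the sites from them.

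**Figure D4:**
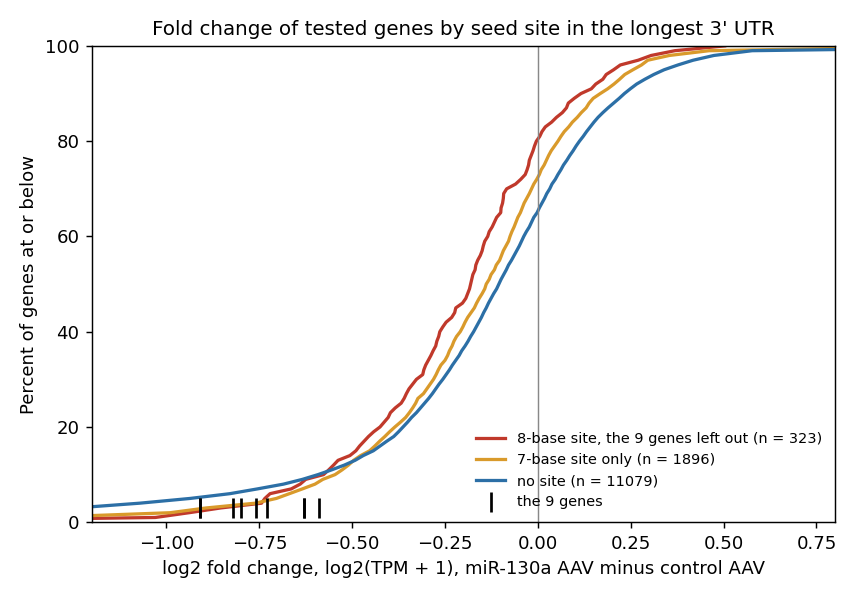
Percent of tested genes (y axis) at or below each log2 fold change, miR-130a AAV minus control AAV on the log2(TPM + 1) scale (x axis), for genes with an 8-base site without the 9 genes (red), with a 7-base site only (orange) and with no site (blue); black ticks mark the 9 genes. The curves cross 0 at 80.8%, 72.3% and 65.4%, and toward the lowest fold changes the curve of genes with no site lies above the others.

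Within 4 equal classes of UTR length, the share called lower among genes with an 8-base site (the 9 left out) was 25.0% of 12, 30.8% of 39, 17.7% of 79 and 8.81% of 193, from the shortest to the longest UTRs. In the same classes it was 13.9%, 14.5%, 12.7% and 8.67% of genes with no site. The value for the shortest UTRs rests on 12 genes. The medians were -0.23, -0.26, -0.22 and -0.16 with an 8-base site and -0.10, -0.14, -0.11 and -0.06 with none. None of the 9 genes has a UTR in the shortest class, 3 are in the class from 623 to 1392 bases, 4 in that from 1393 to 2548 bases and 2 in the longest.

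A split by the position of the site can also be made in the other genes that hold 1 site. Of 158 genes whose site begins at or before base 1209, 30 (19.0%) were called lower, against 15 (9.49%) of 158 with a site farther on. For sequence around the site, 13 (8.23%) of 158 genes in flanks richer in A and U than 59.2% were called lower, against 32 (20.3%) of 158 in other flanks. The median log2 fold change was -0.16 in the flanks rich in A and U and -0.23 in the others. Position and UTR length go together, and neither split was tested.

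Whether genes that work with the 9 also differed was asked with 9 lists of 120 genes, of which 106 were tested. In all, 21 (19.8%) were called lower and 1 (0.943%) higher, with a median log2 fold change of -0.18, against 11.3%, 2.19% and -0.09 over all tested genes. The lists were chosen with earlier results of these data known, and several of the called genes are themselves expressed in microglia, whose markers are given above. The calls of Bach1, Capn2, Ercc3, Sgpl1, Elovl6 and Kxd1 below were each lost in 9 to 12 of 17 other settings, and that of Capn3 in 5. Without miR-130a library 13 or 14, 13 of the 106 were called lower.

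Integrins and tetraspanins that associate with Cd151 had the lowest median of the 9 lists, -0.56, with 6 of 12 called lower. Cd37, a tetraspanin of leukocytes, averaged 7.92 ± 2.03 TPM with the miR-130a AAV and 26.5 ± 8.05 TPM with the control AAV (SD, n = 5 each), a log2 fold change of -1.61 (limma adjusted p = 0.00138). Cd9 averaged 60.3 ± 11 TPM with the miR-130a AAV and 154 ± 40.9 TPM with the control AAV (SD, n = 5 each), at -1.32 (limma adjusted p = 0.00147). Cd53, another leukocyte tetraspanin, was at -1.27 and Cd81 at -0.63 (limma adjusted p = 0.00665 and 0.00243). The laminin-binding integrin chain Itga7 was also called lower, at -0.50, as was Tspan4, at -0.54 (limma adjusted p = 0.0313 and 0.0433). The integrin chains Itga3 and Itga6, which bind laminin too, did not pass the test. Their log2 fold changes were -0.24 and -0.19 (limma adjusted p = 0.26 and 0.334).

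Of 24 genes of sphingosine and ceramide metabolism tested, 3 were called lower and none higher, with a median of -0.16. The sphingosine-1-phosphate receptor S1pr3 averaged 4.11 ± 0.584 TPM with the miR-130a AAV and 9.33 ± 2.55 TPM with the control AAV (SD, n = 5 each), a log2 fold change of -0.99 (limma adjusted p = 0.00349). The ceramidase Acer2 was at -0.57 and the lyase Sgpl1, whose groups overlapped, at -0.48 (limma adjusted p = 0.0159 and 0.0453). Sphk1, the other sphingosine kinase, averaged 2.49 ± 1.14 TPM with the miR-130a AAV and 4.29 ± 0.828 TPM with the control AAV (SD, n = 5 each), and missed the threshold (limma adjusted p = 0.0742).

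Among the partners of Mid1ip1 and the genes of fatty acid synthesis, 2 of 12 were called lower and 1 higher, with a median of 0.08. Mid1, the ubiquitin ligase for which Mid1ip1 is named, averaged 7.52 ± 2.51 TPM with the miR-130a AAV and 15.8 ± 3.07 TPM with the control AAV (SD, n = 5 each), a log2 fold change of -1.01 (limma adjusted p = 0.00554). Srebf1, a transcription factor of lipid synthesis, was at -0.66 (limma adjusted p = 0.00576). The elongase Elovl6 was higher at 0.62 (limma adjusted p = 0.0411), with overlapping groups. The carboxylases that Mid1ip1 acts on did not pass the test, with log2 fold changes of -0.11 for Acaca and -0.42 for Acacb (limma adjusted p = 0.695 and 0.129).

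Of 8 tested large and small Maf factors and their partners, 4 were called lower, with a median of -0.38. Nfe2l2 (Nrf2), the partner of small Maf proteins in the antioxidant response, averaged 11 ± 0.61 TPM with the miR-130a AAV and 26.1 ± 4.24 TPM with the control AAV (SD, n = 5 each), a log2 fold change of -1.16 (limma adjusted p = 0.000503). Maff was at -0.83, or -1.27 with 0.1 TPM added, and Bach1, with overlapping groups, at -0.55 (limma adjusted p = 0.00574 and 0.0366). Of the RUNX proteins that Cbfb binds, Runx1 averaged 0.36 ± 0.147 TPM with the miR-130a AAV and 1.82 ± 0.603 TPM with the control AAV (SD, n = 5 each), a log2 fold change of -1.03, or -2.06 with 0.1 TPM added. It passed the filter only through the control libraries, so no p is given for it, though it is counted among the 21 lower genes. Runx2 was at -0.01 (limma adjusted p = 0.97), and Runx3 was below the filter.

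Most genes of the other 4 lists did not pass the test. Of 19 genes of BLOC-1, BORC and the SNARE machinery around Snapin, only the BORC subunit Kxd1 was called lower, at -0.29 (limma adjusted p = 0.0316), and the median was 0.00. Snap25, the SNARE that Snapin binds, averaged 1640 ± 306 TPM with the miR-130a AAV and 1300 ± 173 TPM with the control AAV (SD, n = 5 each), with limma adjusted p = 0.198. Of 14 tested genes listed around Mms19 for cytosolic iron-sulfur assembly and its client enzymes, 2 were called lower. They were the DNA polymerase subunit Pold1 at -0.59 and the helicase Ercc3 at -0.37 (limma adjusted p = 0.0145 and 0.0357). Ercc3 is not itself an iron-sulfur enzyme, so its call does not speak for the clients. The iron-sulfur helicase Ercc2, on the same list, did not pass, at -0.23 (limma adjusted p = 0.313). Of 8 calpain genes, Capn3 was lower at -0.63 and Capn2, a protease that calpastatin inhibits, at -0.32 (limma adjusted p = 0.021 and 0.0343). Capn1, which calpastatin also inhibits, did not pass, at -0.24 (limma adjusted p = 0.154). None of the 4 genes of the NALCN complex was called; Nalcn was at 0.18 and Nalf1, the paralogue of Nalf2, at -0.12 (limma adjusted p = 0.427 and 0.678).

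**Figure D5:**
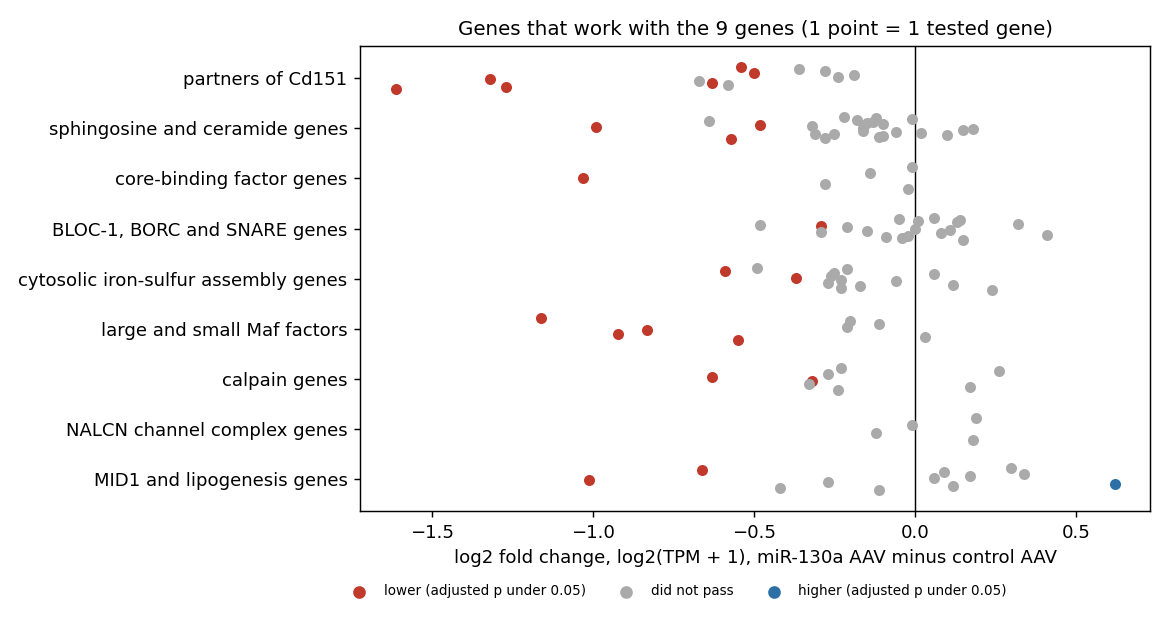
Log2 fold change, miR-130a AAV minus control AAV on the log2(TPM + 1) scale (x axis), of the 106 tested genes in 9 lists (rows) of genes that work with the 9. Each point is a gene, red where limma called it lower (21 genes), blue where higher (Elovl6) and grey where it did not pass an adjusted p of 0.05; the points for the partners of Cd151 all lie below 0, with a median of -0.56.

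Markers of other cells were compared because the 9 genes are expressed in several cell types. Neuronal, astrocyte, oligodendrocyte, endothelial and microglial markers were all detected, and summed excitatory neuron markers ran from 2082 to 2564 TPM in the miR-130a libraries and from 1729 to 3295 TPM in the control libraries. Besides the microglial list, lymphoid markers summed to 1.81 to 8.49 TPM in the miR-130a libraries and 9.61 to 69.5 TPM in the control libraries. Of the 6 lymphoid markers tested, 4 (Cd3e, Cd3d, Cd8a and Cd79a) passed the filter only through the control libraries, so no count of calls is given for that list. Over all tested genes, 11.3% were called lower and 2.19% higher, which is the background for the counts that follow. Endothelial markers summed to 130 to 168 TPM in the miR-130a libraries and 189 to 213 TPM in the control libraries, with 5 of 8 called lower. Mural and fibroblast markers summed to 125 to 176 TPM in the miR-130a libraries and 209 to 282 TPM in the control libraries, with 5 of 9 called lower. Inhibitory neuron markers summed to 1267 to 1654 TPM in the miR-130a libraries and 900.2 to 1150 TPM in the control libraries, and 2 of 8, Sst and Vip, were called higher. Most of that sum was Sst, at 854 to 1262 TPM in the miR-130a libraries and 595 to 673 TPM in the control libraries. The other 6 inhibitory markers were not called, so the sum does not speak for the whole list. No marker of excitatory neurons, oligodendrocytes or their precursors was called, and 1 of 9 astrocyte markers, Gfap, was called lower. Of the macrophage and ciliated cell markers, Ms4a7 (1 of 4 tested, of which Cbr2 passed the filter only through the control libraries) and Foxj1 (the only 1 tested) were called lower. No marker on any list was below 0.1 TPM in all libraries. The part of any of these in the levels of the 9 genes was not tested.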

How the data were processed

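Poly(A) RNA of mouse mPFC was sequenced in 5 miR-130a AAV and 5 control AAV libraries. The authors deposited TPM per gene; the submitters' processing notes name GRCm39, HISAT2, RSEM, fastp and DESeq2, without versions or roles. Depth cannot be read from TPM, the read number is unknown and no counting interval was formed; columns add to 999999 to 1000000, and 24130 to 26429 genes were above 0. The authors' 2 group-mean columns were not used. Columns were matched to libraries by title.

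Here, log2(TPM + 1) of the 15680 genes with a mean of at least 1 TPM was compared with limma 3.58.1 (lmFit, eBayes with trend; R 4.3.3, data.table version 1.17.8), 2-sided, with Benjamini-Hochberg adjustment over all tested genes and a threshold of 0.05. The script was tested on simulated data. The labels give no batch. Tables and figures were made with Python 3.11.15, numpy 2.4.6, pandas 2.3.3 and matplotlib 3.10.9.

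No GRCm39 annotation was used. 3′ UTRs are the bases after the stop codon in GENCODE M21 transcripts (GRCm38), joined by gene ID, and coordinates are GRCm38. MicroRNA sequences are from RefSeq (GRCm38.p6). Ndor1 is listed under several IDs, of which the first was used.

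The 9 genes and all lists were chosen with earlier results of these data known. Named genes are the 9; in each partner list up to 4 called genes with the largest fold change, or the 2 most abundant where none was called; the 5 lowest and 5 highest called genes with an 8-base site and the pair nearest the threshold; and the gene most alike to each of the 9. Other partner genes (Itga7, Tspan4, Itga3, Itga6, Sphk1, Acaca, Acacb, Runx2, Snap25, Ercc2, Capn1), the next genes outside the 9 and called markers were named after their values were seen. Some genes that the rule selects are not reported here. Alternatives were another pseudocount, no filter, median-ratio, quantile and protein-coding scaling, robust moderation, other site definitions, each library left out and control libraries 7 and 9 left out. The site in protein-coding transcripts only was added after seeing the data.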

Additional observations from a re-analysis of the deposited data

Results flagged for a closer look

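In 8 of 82 groups, formed from 41 named genes in 2 groups of 5 libraries, the highest or the lowest library stood apart from the other 4 by more than Dixon's 95% criterion. For independent groups, chance gives about 1 in 20. These groups share the same libraries, in which genes vary together, so their count cannot be set against that rate. Among the 9 genes, Sphk2 was at 12.47 TPM in control library 9, against 18.64 to 19.91 TPM in the other controls. Snapin was at 58.37 TPM in control library 5, against 41.11 to 44.13 TPM. Mms19 was at 9.70 TPM in miR-130a library 17, against 11.65 to 12.42 TPM in the others of that group. In the partner lists, Ercc3 was at 18.83 TPM in miR-130a library 15 (others 16.56 to 17.18 TPM), Nalf1 at 39.72 TPM in miR-130a library 17 (others 45.49 to 47.40 TPM) and Mid1 at 11.85 TPM in miR-130a library 18 (others 5.61 to 7.26 TPM). Maff was at 3.55 TPM in control library 7 (others 2.19 to 2.49 TPM). Ctsc, which has an 8-base site, was at 16.30 TPM in miR-130a library 15 (others 7.82 to 9.86 TPM). The cause was not tested for any of these.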

How the results depend on the processing

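The 9 genes were chosen on this contrast, so their calls under refits of it say nothing of stability and are not counted here. Over all genes, 1767 were called lower and 343 higher; with no filter on low values 1124 and 178, with quantile normalization 1046 and 1071, with median-ratio scaling 1198 and 866, with protein-coding rescaling 1256 and 535. The share of calls that were higher was 16.3% as deposited, 42.0% with median-ratio scaling, 50.6% with quantile normalization and 29.9% with protein-coding rescaling. Leaving out 1 library in turn gave 1108 (without control 7), 1117 (without miR-130a 14) and 1158 (without miR-130a 13) to 2922 (without control 9) lower, and 146 (without control 7) to 499 (without control 9) higher. Genes with an 8-base site called higher (3 as reported) numbered 1 with no filter, 7 with median-ratio scaling, 8 with quantile normalization and 5 with protein-coding rescaling, and 0 to 7 with 1 library left out. Those called lower (55) numbered 39 with no filter, 42 with median-ratio scaling, 37 with quantile normalization and 39 with protein-coding rescaling. With 1 library left out they numbered 38 to 88 (without control 9). Of genes with only a 7-base site, 253 were lower and 19 higher. Partner genes called lower (21) numbered 11 with quantile normalization and 13 (without miR-130a 13 or 14) to 30 with 1 library left out; called higher (1), 3 with median-ratio scaling, 3 with quantile normalization and 0 to 3 with 1 library left out. The median log2 fold change of 8-base genes without the 9 was below that of genes with no site in all settings (-0.08 against 0.00 with median-ratio scaling, -0.02 against 0.04 with quantile normalization). The difference was small without miR-130a library 17, at -0.10 against -0.09. The calls of Bach1, Pex5l, Capn2, Ercc3, Sgpl1, Elovl6, Fuom and Kxd1 were lost in 9 to 12 of 17 alternatives. The site in the longest UTR among protein-coding transcripts only, added after seeing the data, gave 54 lower and 2 higher of 326. No paired analysis was possible because the groups share no library numbers. With no depth, the precision of low TPM values is unknown. The cause of these differences was not tested.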
